A study of Homo sapiens with 15 samples.

Results

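The replication-dependent histone genes were followed through doxorubicin treatment of 2 related breast cancer lines. They were defined as the genes whose probe sets carry a single symbol beginning with H2AC, H2BC, H3C or H4C and a number, or one of the symbols H1-1 to H1-5, in the platform annotation. The table held 46 such probe sets for 41 genes, of 54675 probe sets and 19775 genes in all: 5 genes of linker histone H1, 8 of H2A, 13 of H2B, 7 of H3 and 8 of H4. Each gene was read from its brightest probe set over all arrays. The symbol rule itself used no measured value, but the genes were chosen with earlier results of these data known.

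CAL51 is a triple-negative breast cancer line, and CALDOX was grown from it by long culture with 0.4 µM doxorubicin. Doxorubicin is an anthracycline that traps topoisomerase II on broken DNA. The 5 groups were CALDOX passaged 3 times free of drug and then exposed to 4 µM doxorubicin for 24 h, CALDOX without this exposure, CAL51 without drug, and CAL51 after 24 h and 48 h with 0.4 µM doxorubicin. Each group had 3 independent cultures with 1 Affymetrix array per culture, 15 arrays in all, and values are RMA log2 intensities. CALDOX is routinely kept in 0.4 µM doxorubicin, and the labels do not say whether its untreated cultures were free of drug or whether the line is a single clone.

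Histones H2A, H2B, H3 and H4 form the core around which DNA is wound, and H1 binds the linker DNA between cores. The replication-dependent genes are mostly intronless copies in clusters that are transcribed mainly in S phase, and their mRNA normally ends in a conserved stem-loop, bound by SLBP, in place of a poly(A) tail. When replication stops these mRNAs are rapidly degraded, but some of the genes also give polyadenylated mRNA, which is known from differentiated and non-dividing cells. An array reads the sum of both forms that enters its labelled material, and the sources used here do not state how the cDNA was primed, so these intensities cannot tell the 2 forms apart. In bulk cultures, fewer cells in S phase and less RNA per cell cannot be told apart either.

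Promoter sequences of 6 genes are shown as a description, and their part in the results was not tested. The genes are H2BC11 and 5 whose mRNA was higher in every drug-treated group than in its untreated group. H2BC11 is the H2B gene with the highest 48 h difference among those that did not pass the test. Each is the RefSeq window on GRCh38.p14 from 250 bases before to 50 bases after the annotated start, read 5′ to 3′ on the gene's strand. Capitals mark TATAAA, the TATA box, and ATTTGCAT, the octamer known from H2B promoters as a site of the factor POU2F1, or their reverse complements.
H2BC12 (chr6:27146806-27147105, minus strand): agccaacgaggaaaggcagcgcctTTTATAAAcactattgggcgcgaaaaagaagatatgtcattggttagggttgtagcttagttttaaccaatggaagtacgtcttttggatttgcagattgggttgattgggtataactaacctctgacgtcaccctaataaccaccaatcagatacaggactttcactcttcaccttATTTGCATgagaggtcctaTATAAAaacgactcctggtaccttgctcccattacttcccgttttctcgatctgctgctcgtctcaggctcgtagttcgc
H2BC21 (chr1:149886633-149886932, minus strand): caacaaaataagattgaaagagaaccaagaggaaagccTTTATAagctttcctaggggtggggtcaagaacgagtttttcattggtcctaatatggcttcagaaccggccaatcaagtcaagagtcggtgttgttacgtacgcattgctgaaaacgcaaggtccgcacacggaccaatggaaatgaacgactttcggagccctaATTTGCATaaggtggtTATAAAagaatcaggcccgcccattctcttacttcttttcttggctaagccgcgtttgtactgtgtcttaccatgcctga
H2AC6 (chr6:26123922-26124221, plus strand): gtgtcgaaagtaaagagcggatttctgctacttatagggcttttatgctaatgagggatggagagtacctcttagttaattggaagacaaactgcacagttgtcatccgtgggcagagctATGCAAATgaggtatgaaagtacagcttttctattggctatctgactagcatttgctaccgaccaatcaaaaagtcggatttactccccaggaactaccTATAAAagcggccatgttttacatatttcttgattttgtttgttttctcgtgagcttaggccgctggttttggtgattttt
H1-2 (chr6:26056421-26056720, minus strand): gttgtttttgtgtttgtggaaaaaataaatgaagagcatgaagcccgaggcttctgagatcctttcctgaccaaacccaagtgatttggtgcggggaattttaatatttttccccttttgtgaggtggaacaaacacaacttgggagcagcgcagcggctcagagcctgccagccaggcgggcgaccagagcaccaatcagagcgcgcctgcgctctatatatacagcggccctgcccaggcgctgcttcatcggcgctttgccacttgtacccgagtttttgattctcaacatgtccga
H2BC5 (chr6:26157871-26158170, plus strand): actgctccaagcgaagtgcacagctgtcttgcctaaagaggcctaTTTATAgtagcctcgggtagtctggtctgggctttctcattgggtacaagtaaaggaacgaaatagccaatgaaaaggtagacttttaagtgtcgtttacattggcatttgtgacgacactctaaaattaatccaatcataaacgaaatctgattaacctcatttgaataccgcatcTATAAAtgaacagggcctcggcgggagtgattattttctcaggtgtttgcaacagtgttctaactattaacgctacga
H2BC11 (chr6:27132746-27133045, minus strand): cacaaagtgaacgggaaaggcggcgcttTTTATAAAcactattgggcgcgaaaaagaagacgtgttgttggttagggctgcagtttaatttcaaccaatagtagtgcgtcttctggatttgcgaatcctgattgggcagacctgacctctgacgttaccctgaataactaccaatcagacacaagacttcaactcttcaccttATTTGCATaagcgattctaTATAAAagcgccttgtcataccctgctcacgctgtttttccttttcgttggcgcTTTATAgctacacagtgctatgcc
H2BC4 is the divergent neighbour of H2AC6, and its window (chr6:26123877-26124176, minus strand) shares 255 bases with the one shown.

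Windows were found for 39 of the 41 genes. The octamer ATTTGCAT stood on either strand in 16 of 39 windows (41%), against 1.82% of 27305 windows of that length over all genes. TATAAA stood in 27 of 39 (69.2%) against 12.1%, and CCAAT in 34 of 39 (87.2%) against 35.6%. The E2F-type words were TTTGGCGC, in 0 of 39 against 0.656%, and TTTCGCGC, in 9 of 39 (23.1%) against 0.527%. The octamer lay in 4 of the 6 genes that rose at 24 h (66.7%) and in 12 of the 33 others (36.4%), and among H2B genes alone in 3 of 4 (75%) and 7 of 9 (77.8%). Relative to the annotated start, the octamer began at -49 in H2BC12, -46 in H2BC21, -123 in H2BC4 and -47 in H2BC11. H2BC5, which also rose, had none. The shares rest on few genes, and the part of this word in the rise was not tested. Each word was searched on both strands and counted on its own, also where matches of different words overlap. Windows of 4 pairs of divergent H2A and H2B genes share 255 to 293 bases, so the windows are not independent, and a match is a description of letters, not a measured site.

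Array medians ranged from 6.95 to 7.03 and Pearson correlations over all probe sets were 0.993 to 0.998 within groups and 0.979 to 0.996 between groups. The epithelial keratin genes KRT8 and KRT18 stood at 11.96 to 13.34 and 13.55 to 14.55, and EPCAM at 11.75 to 12.40. Other markers of the line moved: KRT19 averaged 11.82 in CALDOX at 24 h, 11.35 in untreated CALDOX, 6.59 in untreated CAL51, 7.89 in CAL51 at 24 h and 8.68 at 48 h. CDH1, the E-cadherin gene, averaged 6.50 in CALDOX at 24 h, 5.99 in untreated CALDOX, 7.34 in untreated CAL51, 8.01 in CAL51 at 24 h and 8.81 at 48 h. VIM, the vimentin gene, averaged 11.36 in CALDOX at 24 h, 10.86 in untreated CALDOX, 12.58 in untreated CAL51, 13.11 in CAL51 at 24 h and 12.77 at 48 h. Their part in the histone results was not tested. The 8 markers of blood, endothelial and fibroblast cells, summed on the log2 scale, came to 56.49 to 56.62 in CALDOX at 24 h, 56.27 to 57.33 in untreated CALDOX, 56.28 to 57.24 in untreated CAL51, 55.91 to 56.75 in CAL51 at 24 h and 56.47 to 57.07 at 48 h, ranges that overlap. The hormone receptor genes ESR1 and PGR stood at 8.13 to 8.54 and 5.93 to 6.31 over all arrays, and the HER2 gene ERBB2 at 9.87 to 10.16. The table has no detection calls, so no gene could be called absent.

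In CAL51 treated for 24 h, 6 histone genes rose and 0 fell. They were 4 of the 13 H2B genes (H2BC12, H2BC5, H2BC4 and H2BC21), 1 of the 8 H2A genes (H2AC6) and 1 of the 5 H1 genes (H1-2), with increases of 0.52 to 1.19 on the log2 scale. These 6 are 14.6% of the 41 genes, where limma called 10.1% of all genes tested, 5.77% higher and 4.34% lower, and 8 of the 41 had an unadjusted p under 0.05. For 10 of the 41 genes the treated and untreated arrays had no overlap, as was so for 23.3% of all genes. No H3 or H4 gene passed the test, and all 8 H4 genes had small negative differences, -0.16 to -0.03, with 0 at an unadjusted p under 0.05. The median histone gene changed by 0.02, against -0.03 over all genes, and the 35 genes that did not pass lay between -0.24 and 0.15. All 6 genes were higher again at 48 h, when 8 histone genes had risen and 3 had fallen against untreated cells. Those 11 genes are 26.8% of the 41, against 21.6% of all genes (10.5% higher, 11.2% lower), and the median histone gene changed by 0.05, against -0.02 over all genes. At 48 h, 16 of the 41 genes had no overlap, against 33.6% of all genes.

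**Figure D1:**
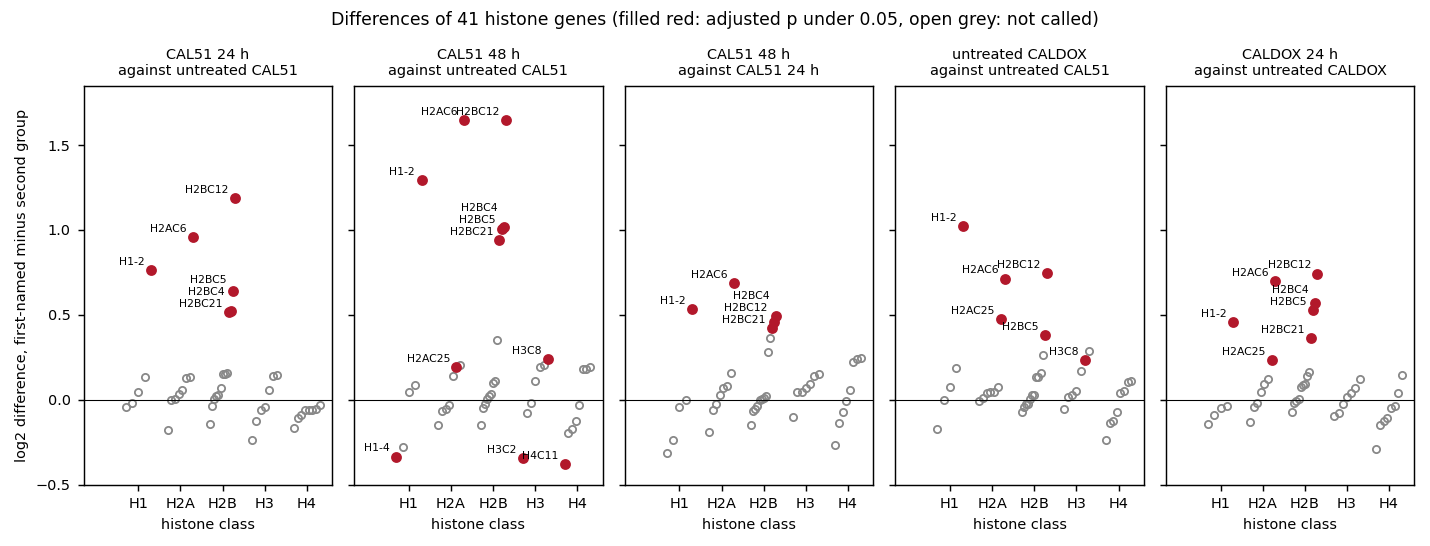
Log2 differences (vertical axis) of the 41 histone genes in 5 comparisons, by class H1, H2A, H2B, H3 and H4 (horizontal axis). Filled red points passed limma's test at an adjusted p under 0.05 and open grey points did not; the called points above 0.5 belong to H1-2, H2AC6 and H2B genes, while H4 genes stay near or below 0.

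H2BC12 is a gene for histone H2B. Its log2 intensities in CAL51 were 9.49, 9.56 and 9.60 without drug, 10.72, 10.79 and 10.71 at 24 h, and 11.24, 11.19 and 11.17 at 48 h. The arrays formed 3 separate steps with little spread inside each. The difference from untreated CAL51 was 1.19 ± 0.05 at 24 h (2.28-fold, adjusted p = 8.6e-10) and 1.65 ± 0.05 at 48 h (3.13-fold, adjusted p = 8.8e-12), where ± is limma's standard error and n = 3 arrays per group.

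H2BC5 encodes the same kind of core histone. Its CAL51 intensities were 8.82, 9.29 and 8.69 without drug, 9.54, 9.59 and 9.59 at 24 h, and 9.78, 10.10 and 9.94 at 48 h. Untreated arrays were the most scattered, yet all lay below the treated ones. The differences were 0.64 ± 0.12 at 24 h (adjusted p = 0.0018) and 1.01 ± 0.12 at 48 h (adjusted p = 9.7e-06). A second, dimmer H2BC5 probe set gave 0.24 at 24 h (adjusted p = 0.081) and 0.23 at 48 h (adjusted p = 0.069), both adjusted over all probe sets, so the size of the rise depends on the probe set read.

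H2BC4, the H2B gene that shares a divergent promoter with H2AC6, was dim. It stood at 5.58, 5.63 and 5.29 without drug, 5.83, 6.17 and 6.06 at 24 h, and 6.46, 6.71 and 6.38 at 48 h. H2BC21, an H2B gene in the histone cluster of chromosome 1, stood at 6.28, 6.31 and 6.23 without drug, 6.69, 6.93 and 6.75 at 24 h, and 7.06, 7.11 and 7.47 at 48 h. Neither gene had an overlap between groups. H2BC4 rose by 0.52 ± 0.11 at 24 h (adjusted p = 0.0066) and 1.02 ± 0.11 at 48 h (adjusted p = 6.6e-06), and H2BC21 by 0.52 ± 0.11 (adjusted p = 0.0065) and 0.94 ± 0.11 (adjusted p = 1.3e-05). Background signal remains in dim probe sets, so these folds may be understated. The other 9 H2B genes did not pass at either time, with H2BC11 the nearest at 48 h, at 0.35 ± 0.12 (adjusted p = 0.050).

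H2AC6, which encodes histone H2A, stood in CAL51 at 7.74, 7.26 and 7.33 without drug, 8.47, 8.15 and 8.58 at 24 h, and 9.06, 8.998 and 9.22 at 48 h. Every array of a later time lay above every array of an earlier one. It rose by 0.96 ± 0.12 at 24 h (1.95-fold, adjusted p = 7.8e-05) and 1.65 ± 0.12 at 48 h (3.1-fold, adjusted p = 9.1e-08). H2AC25, an H2A gene on chromosome 1, had 8.49, 8.77 and 8.55 without drug, 8.63, 8.62 and 8.67 at 24 h, and 8.82, 8.76 and 8.81 at 48 h. Its 48 h difference passed narrowly at 0.19 ± 0.06 (adjusted p = 0.043), with overlap between the arrays. The call was lost without untreated replicate 1 or 3 or any 48 h replicate (adjusted p up to 0.19), and with the replicate block (adjusted p = 0.063). The second H2AC25 probe set gave 0.10 (adjusted p = 0.53 over all probe sets). The other 6 H2A genes did not pass.

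H1-2 encodes a linker histone made in most dividing cells. It stood at 7.64, 7.83 and 7.36 without drug, 8.30, 8.36 and 8.46 at 24 h, and 8.93, 8.83 and 8.96 at 48 h, again with no overlap. It rose by 0.76 ± 0.10 at 24 h (1.70-fold, adjusted p = 8.6e-05) and 1.30 ± 0.10 at 48 h (2.46-fold, adjusted p = 1.1e-07). H1-4, another linker histone gene, moved the other way at 48 h. Its intensities were 7.14, 7.43 and 6.95 without drug, 7.01, 7.18 and 7.27 at 24 h, and 6.97, 6.79 and 6.75 at 48 h, so the 48 h and untreated arrays overlap slightly. The 48 h difference was -0.335 ± 0.11 (adjusted p = 0.032) and did not pass without untreated replicate 1 or 2 or 48 h replicate 2 or 3 (adjusted p up to 0.17). H1-1, H1-3 and H1-5 did not pass at either time.

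By the brightest probe set of each gene, 1 H3 or H4 gene was higher and 2 were lower at 48 h. H3C8 stood at 8.03, 8.18 and 7.91 without drug and 8.24, 8.21 and 8.38 at 48 h, a difference of 0.24 ± 0.08 (adjusted p = 0.033). H3C2 went down, with 6.32, 6.40 and 6.44 without drug, 6.26, 6.11 and 6.06 at 24 h, and 6.10, 6.04 and 5.98 at 48 h, a 48 h difference of -0.34 ± 0.10 (adjusted p = 0.027). H4C11 also went down, with 8.17, 8.33 and 8.31 without drug, 8.04, 8.41 and 8.02 at 24 h, and 7.89, 7.95 and 7.83 at 48 h, a 48 h difference of -0.38 ± 0.09 (adjusted p = 0.0057). In all 3 genes the 48 h and untreated arrays did not overlap. The H3C8 call was lost without untreated replicate 1 or 3 or 48 h replicate 1 or 3 (adjusted p up to 0.16). The H3C2 call was lost without untreated replicate 2 or 3 or 48 h replicate 2 or 3 (adjusted p up to 0.087), while the H4C11 call held without any single array. H3C6 is read by 2 probe sets that differ: the brighter gave 0.19 at 48 h (adjusted p = 0.15) and the dimmer 0.42 (adjusted p = 0.0045 over all probe sets). For H4C8 the brighter probe set did not pass and the dimmer gave 0.31 at 48 h (adjusted p = 0.048 over all probe sets).

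Some probe sets that carry the symbols of several histone genes had larger or opposite differences. The single-gene values thus do not speak for all H2B, H3 and H4 mRNA on the array. Of 2 shared by the same 10 H3 genes, 1 rose in CAL51 by 0.75 ± 0.10 at 24 h (adjusted p = 6.5e-05) and 1.04 ± 0.10 at 48 h (adjusted p = 1.0e-06), and by 0.65 ± 0.10 in treated CALDOX (adjusted p = 0.00040), where p is adjusted over all probe sets. It was also higher in untreated CALDOX than in untreated CAL51 by 0.59 ± 0.10 (adjusted p = 0.00019). The other of the 2 was called in none of these comparisons, with -0.27 at 24 h and -0.14 at 48 h in CAL51. A probe set with those 10 symbols and that of an H2A gene rose in CAL51 by 0.69 ± 0.15 at 24 h (adjusted p = 0.0069) and 1.06 ± 0.15 at 48 h (adjusted p = 9.5e-05). Of 6 probe sets shared by H4 genes, 0 rose and 2 fell in CAL51 at 48 h. The larger fall, in 1 of the 5 that carry 14 H4 symbols, was 0.83 ± 0.08 (adjusted p = 3.4e-06). Of 5 shared by H2B genes, 0 were called in CAL51 at 24 h, and 1 was higher and 1 lower at 48 h. These 2 carry the same 5 symbols, H2BC4 among them. They gave 1.02 ± 0.15 (adjusted p = 0.00012) and -0.28 ± 0.08 (adjusted p = 0.031) at 48 h. In treated CALDOX 1 of the 5 H2B sets rose and 0 fell.

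**Figure D2:**
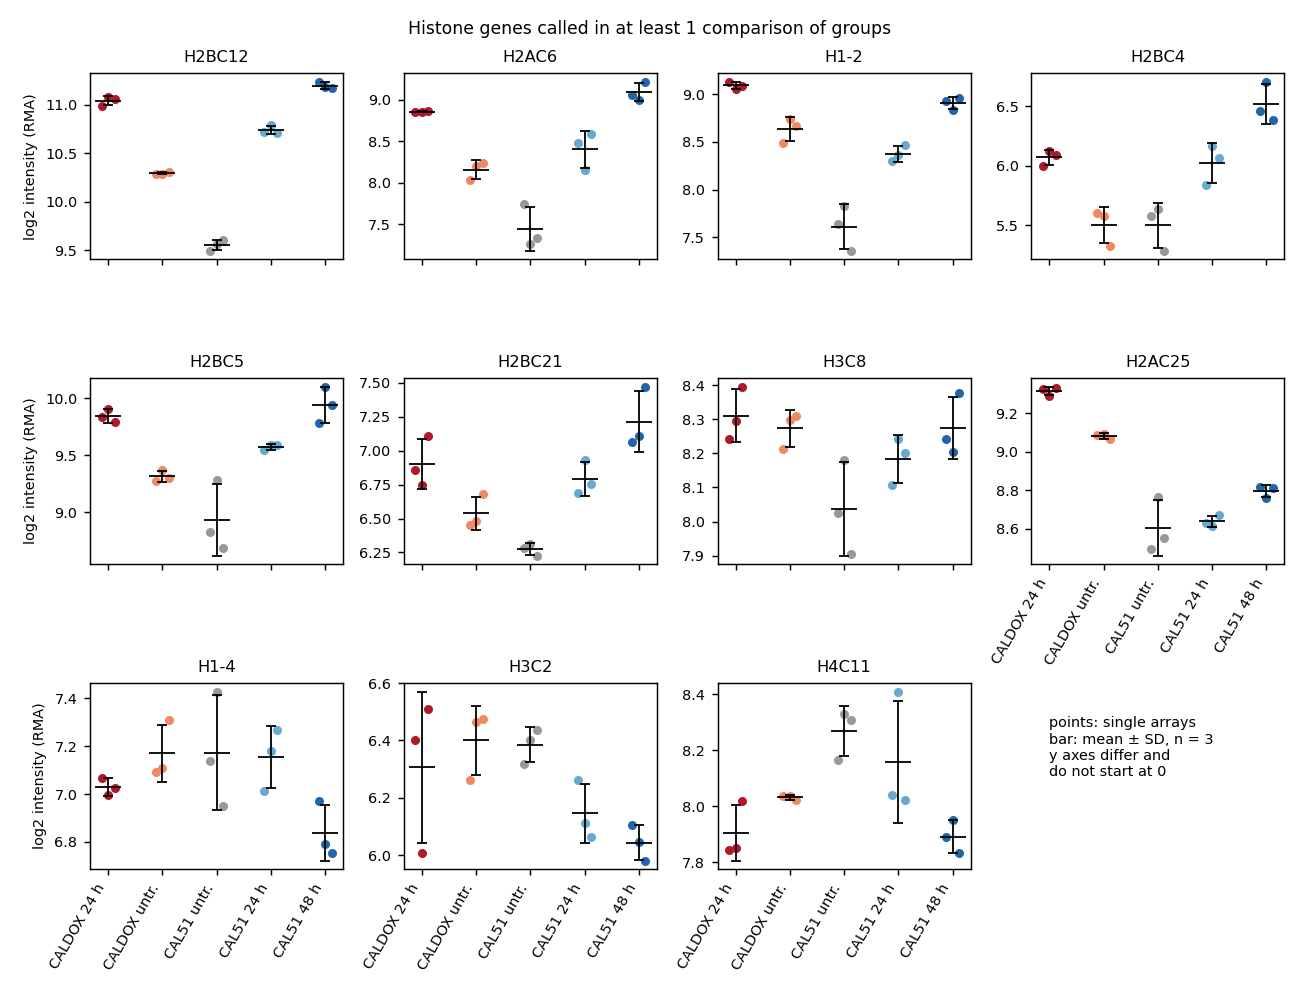
Log2 intensity (vertical axis, not starting at 0) of the 11 histone genes called in at least 1 comparison, with groups from left to right CALDOX 24 h, untreated CALDOX, untreated CAL51, CAL51 24 h and CAL51 48 h. Points are arrays and bars the mean ± SD (n = 3); H2BC12 has means of 9.55 in untreated CAL51, 10.74 at 24 h and 11.20 at 48 h, while within CAL51 the means of H4C11 and H3C2 are lowest at 48 h.

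Between 24 h and 48 h, 5 of the 6 genes that had risen rose further, while the share of histone genes called was near that of all genes. At 48 h, 5 histone genes were higher than at 24 h and 0 were lower, 12.2% of the 41 against 9.71% of all genes (4.37% higher, 5.34% lower). Of the 41, 15 had an unadjusted p under 0.05, and 12 had no overlap between arrays, against 23.1% of all genes. H2AC6 gained a further 0.69 ± 0.12 (adjusted p = 0.0019), H1-2 0.53 ± 0.10 (adjusted p = 0.0025), H2BC4 0.49 ± 0.11 (adjusted p = 0.010), H2BC12 0.46 ± 0.05 (adjusted p = 0.00011) and H2BC21 0.42 ± 0.11 (adjusted p = 0.023). H2BC5, the remaining gene of the 6, had 0.37 (adjusted p = 0.058). All 3 comparisons within CAL51 share arrays, so their counts do not support each other. The H2BC21 call was lost without 24 h replicate 1 or 3 or 48 h replicate 3 (adjusted p up to 0.097) and the H2BC4 call without 24 h replicate 1 or 48 h replicate 2 (adjusted p up to 0.059). The count was 3 without 24 h replicate 1.

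Some histone genes also differed between the untreated lines, though the untreated CALDOX cultures may not have been free of drug. Of the 41 genes, 6 were higher in untreated CALDOX than in untreated CAL51 and 0 were lower, or 14.6%, which is below the 25.9% of all genes called (14.2% higher, 11.7% lower); 10 of the 41 had an unadjusted p under 0.05 and 11 had no overlap, against 36.9% of all genes. The median histone gene differed by 0.04, against 0.00 over all genes, and the genes that did not pass lay between -0.24 and 0.28. This comparison uses the same untreated CAL51 arrays as the time course.

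H1-2 stood at 8.49, 8.74 and 8.67 in untreated CALDOX, against 7.64, 7.83 and 7.36 in untreated CAL51. It was higher by 1.02 ± 0.10 (2.03-fold, adjusted p = 5.9e-07), and every CALDOX array lay above every CAL51 array. H2BC12 stood at 10.29, 10.29 and 10.31 in untreated CALDOX, against 9.49, 9.56 and 9.60 in untreated CAL51, a difference of 0.74 ± 0.05 (1.68-fold, adjusted p = 2.2e-08). H2AC6 had 8.03, 8.20 and 8.24 in untreated CALDOX, against 7.74, 7.26 and 7.33 in untreated CAL51, a difference of 0.71 ± 0.12 (1.64-fold, adjusted p = 0.00026). In H2AC6 and H2BC12 too, the lines did not overlap. H2AC25 had 9.09, 9.09 and 9.07 in untreated CALDOX, against 8.49, 8.77 and 8.55 in untreated CAL51, and was higher by 0.48 ± 0.06 (1.39-fold, adjusted p = 2.6e-05). The lines did not overlap in this gene either, but its second probe set gave 0.25 (adjusted p = 0.047 over all probe sets).

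H2BC5 and H3C8 were higher in untreated CALDOX by less. H2BC5 had 9.27, 9.37 and 9.30 in untreated CALDOX, against 8.82, 9.29 and 8.69 in untreated CAL51, a difference of 0.38 ± 0.12 (adjusted p = 0.022) with overlapping arrays. H3C8 had 8.21, 8.30 and 8.31 in untreated CALDOX, against 8.03, 8.18 and 7.91 in untreated CAL51, a difference of 0.24 ± 0.08 (adjusted p = 0.029). Neither passed without untreated CALDOX replicate 2 or 3 or untreated CAL51 replicate 1 or 3, with adjusted p up to 0.13 for H2BC5 and 0.15 for H3C8. The second H2BC5 probe set gave 0.00 here (adjusted p = 0.98 over all probe sets), and the median of both sets did not pass (adjusted p = 0.13). The other 2 genes of the 6 that rose in CAL51 did not differ at this threshold. H2BC21 differed by 0.26 ± 0.11 (adjusted p = 0.10), and H2BC4 by 0.00, with 5.60, 5.58 and 5.32 in untreated CALDOX, against 5.58, 5.63 and 5.29 in untreated CAL51.

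In CALDOX given 4 µM doxorubicin for 24 h, 7 histone genes were higher than in untreated CALDOX and 0 were lower. They are 17.1% of the 41, against 10.3% of all genes (4.82% higher, 5.5% lower). An unadjusted p under 0.05 was reached by 8 of the 41, and 12 had no overlap between arrays, against 30.8% of all genes. The count ran from 4, without probe sets marked as matching several transcripts, to 13, with array weights. The 7 comprised H2AC25 and the same 6 genes that rose in CAL51. Drug-free passages are recorded only for the treated CALDOX cultures, so this history and the 4 µM exposure cannot be told apart. The 34 genes that did not pass lay between -0.29 and 0.17, and the median histone gene changed by 0.02, against -0.01 over all genes.

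H2BC12 stood at 10.99, 11.08 and 11.06 in treated CALDOX, against 10.29, 10.29 and 10.31 in untreated CALDOX, a rise of 0.74 ± 0.05 (1.67-fold, adjusted p = 3.9e-07). H2AC6 stood at 8.85, 8.86 and 8.86 in treated CALDOX, against 8.03, 8.20 and 8.24 in untreated CALDOX, a rise of 0.70 ± 0.12 (1.62-fold, adjusted p = 0.0012). H1-2 stood at 9.13, 9.06 and 9.09 in treated CALDOX, against 8.49, 8.74 and 8.67 in untreated CALDOX, a rise of 0.46 ± 0.10 (1.38-fold, adjusted p = 0.0054). In each of the 3 genes all treated arrays lay above all untreated ones. H2BC4 had 6.001, 6.12 and 6.09 in treated CALDOX, against 5.60, 5.58 and 5.32 in untreated CALDOX, and rose by 0.57 ± 0.11 (1.49-fold, adjusted p = 0.0032). H2BC5 had 9.83, 9.91 and 9.79 in treated CALDOX, against 9.27, 9.37 and 9.30 in untreated CALDOX, and rose by 0.53 ± 0.12 (1.44-fold, adjusted p = 0.0067). The second H2BC5 probe set also passed here, at 0.29 (adjusted p = 0.042 over all probe sets).

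The other 2 calls in treated CALDOX were less firm. H2BC21 had 6.86, 6.75 and 7.11 in treated CALDOX, against 6.45, 6.48 and 6.68 in untreated CALDOX, a difference of 0.36 ± 0.11 (adjusted p = 0.048). H2AC25 had 9.32, 9.29 and 9.33 in treated CALDOX, against 9.09, 9.09 and 9.07 in untreated CALDOX, a difference of 0.235 ± 0.06 (adjusted p = 0.027). The H2BC21 call was lost without treated replicate 1 or 3 or untreated replicate 1 or 2 (adjusted p up to 0.24), and the H2AC25 call without any 1 of the 6 CALDOX arrays (adjusted p up to 0.094). The second H2AC25 probe set gave -0.15 (adjusted p = 0.39 over all probe sets). No H3 or H4 gene passed in treated CALDOX by its brighter probe set, and H4C4 had the largest difference among genes not called, at -0.29 (adjusted p = 0.24). The dimmer H3C6 probe set did rise, by 0.48 (adjusted p = 0.0036 over all probe sets), where the brighter gave -0.08.

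The size of the 24 h response was compared between the lines as the CALDOX response minus the CAL51 response. The drug concentrations differed, 4 µM in CALDOX and 0.4 µM in CAL51, so line, dose and drug-free passages cannot be told apart. Of the 41 genes, 1 passed (2.44%, against 1.43% of all genes, 0.576% higher and 0.855% lower), and 4 had an unadjusted p under 0.05. H2BC12 rose less in CALDOX, by a difference of -0.44 ± 0.08 (adjusted p = 0.0062), with means of 11.04 in treated and 10.30 in untreated CALDOX, against 10.74 in CAL51 at 24 h and 9.55 in untreated CAL51. The differences for H1-2, -0.30 ± 0.14 (adjusted p = 0.41), and H2AC6, -0.26 ± 0.17 (adjusted p = 0.64), did not pass. H2AC17 had -0.26 ± 0.11 and H2AC25 0.20 ± 0.09, each with an adjusted p of 0.41.

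**Figure D3:**
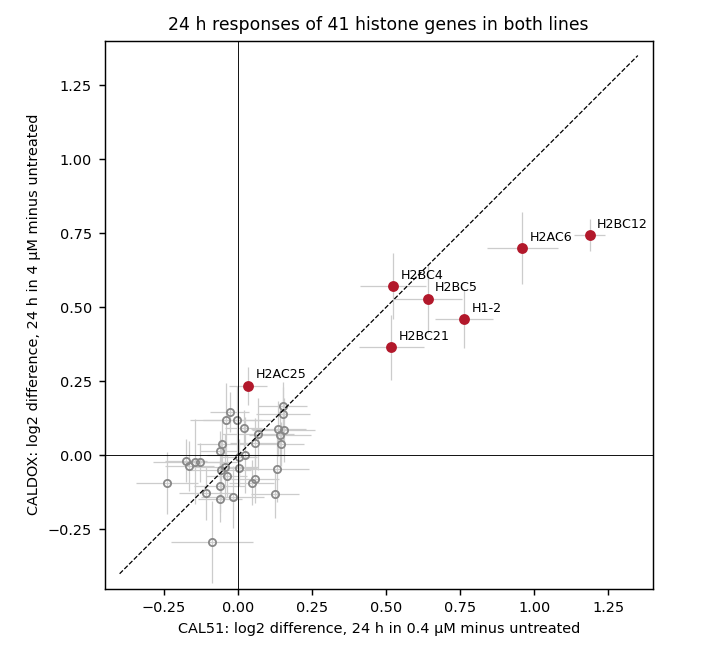
The 24 h log2 response in CALDOX at 4 µM (vertical axis) against that in CAL51 at 0.4 µM (horizontal axis) for the 41 histone genes, with limma standard errors. The dashed line marks equal responses; H2BC12 lies below it, at 0.74 in CALDOX and 1.19 in CAL51, and most genes lie around 0 on both axes.

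Across the 5 group comparisons, 30 of the 41 genes passed in none and 11 in at least 1. H1-2, H2AC6 and H2BC12 were higher in all 5. The 6 genes that were higher in every drug-treated group than in its untreated group had mean intensities of 5.92 to 10.57 over the 15 arrays. Of these, 2 were under 7 and 0 under 5. The other 35 lay between 4.41 and 8.89, with 25 under 7 and 5 under 5, where a change is harder to see. The part of signal level in the split was not tested. RefSeq lists more than 1 curated transcript for 3 of the 6 genes (H2BC12, H2BC4 and H2BC5) and for 1 of the other 35 (H3C6). Probe sets marked as matching several transcripts read 9 of the 41 genes, and near-identical copies may share their signal: H2AC6, H2BC5 and H2BC21 among the 6 that rose, and H2AC14, H2BC6, H2BC9, H3C2, H3C8 and H4C11. H2BC12, H1-2 and H2BC4 were read by probe sets without that mark.

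The machinery that makes and handles histone mRNA was read from a list of 27 genes, of which 26 were tested. In CAL51 at 24 h, 3 rose and 2 fell (19.2%, against 10.1% of all genes), with a median of -0.04. LSM11, a subunit of the U7 particle that cuts histone pre-mRNA, fell by 0.44 ± 0.07 (adjusted p = 0.00069), and CASP8AP2, a component of histone locus bodies, by 0.31 ± 0.08 (adjusted p = 0.025). CCNE1, the cyclin E1 that with CDK2 activates the histone gene co-activator NPAT, rose by 0.32 ± 0.06 (adjusted p = 0.0024), and the DNA damage kinase ATM rose by 0.24 ± 0.07 (adjusted p = 0.042). By 48 h, 3 were higher and 11 lower than without drug (53.8%, against 21.6% of all genes). CCNE2, the cyclin E2 gene, fell by 1.04 ± 0.11 (adjusted p = 5.4e-06), CASP8AP2 by 0.68 ± 0.08 (adjusted p = 1.5e-05) and LSM11 by 0.57 ± 0.07 (adjusted p = 1.7e-05). SLBP, whose protein binds the stem-loop, changed by -0.06 at 24 h (adjusted p = 0.75) and fell by 0.40 ± 0.09 at 48 h (adjusted p = 0.0048), and NPAT fell by 0.33 ± 0.07 at 48 h (adjusted p = 0.0019); these genes were singled out for their role after their values were seen. Against 24 h, 1 of the 26 was higher and 6 were lower at 48 h (26.9%, against 9.71% of all genes). A link between these factors and the histone genes that rose was not tested.

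Between the untreated lines, 3 of these 26 genes were higher and 6 lower in CALDOX, 34.6% against 25.9% of all genes. ERI1, an exonuclease that trims the histone stem-loop, was higher in CALDOX by 1.08 ± 0.07 (adjusted p = 3.8e-09) and MIF4GD, an SLBP partner in translation, by 0.67 ± 0.07 (adjusted p = 1.5e-06). CCNE2 was lower by 1.26 ± 0.11 (adjusted p = 2.8e-07) and NCBP1, of the cap-binding complex, by 0.49 ± 0.06 (adjusted p = 2.2e-05). In treated CALDOX, 1 rose and 8 fell against untreated CALDOX (34.6%, against 10.3% of all genes): CDK2 fell by 0.37 ± 0.06 (adjusted p = 0.00053), LSM11 by 0.34 (adjusted p = 0.0044) and CASP8AP2 by 0.33 (adjusted p = 0.015), while PCF11, a 3′ end processing factor, rose by 0.32 (adjusted p = 0.020).

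Histone chaperones carry new histones to DNA, and many were lower after drug. Of 23 tested, 0 rose and 7 fell in CAL51 at 24 h (30.4%, against 10.1% of all genes), and 2 rose and 16 fell at 48 h (78.3%, against 21.6%), with medians of -0.15 and -0.33. At 48 h MCM2, a helicase subunit that also binds H3 and H4, changed by -0.68, SSRP1, of the FACT complex, by -0.62, HJURP, the CENP-A chaperone, by -0.59, and ASF1B by -0.58. In CALDOX at 24 h, 1 rose and 12 fell (56.5%, against 10.3%), led by MCM2 at -0.47 and ASF1B at -0.44. Between the untreated lines 1 was higher and 6 lower in CALDOX, 30.4% against 25.9% of all genes, a share near the background. ATRX, which places H3.3 in repeats, was lower there by 1.49 ± 0.07 (adjusted p = 1.4e-10).

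Most of the histone variants listed here are made independently of replication, throughout the cell cycle or with their own timing. Of 10 tested, 0 rose in the drug comparisons, and 1 fell in CAL51 at 24 h, 4 at 48 h and 3 in CALDOX at 24 h. These are 10%, 40% and 30% of the 10, against 10.1%, 21.6% and 10.3% of all genes, so the 24 h share in CAL51 is at the background. CENPA, the centromeric H3, changed by -0.53 in CAL51 at 48 h and -0.45 in CALDOX at 24 h. H2AX, the H2A variant phosphorylated at DNA breaks, changed by -0.44 in CAL51 at 48 h and by -0.34 in CALDOX at 24 h, and its 24 h response was lower in CALDOX than in CAL51 by -0.35 ± 0.08 (adjusted p = 0.042). H1-10 changed by -0.49 in CAL51 at 48 h. The 3 testis-type histone genes tested, H3-4, H1-6 and H1-7, were called in 0 of the 6 comparisons by limma, with 1 unadjusted p under 0.05, between the untreated lines.

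S phase and DNA replication genes, which are normally active together with the histone genes, were largely lower after drug. Of 32 tested, 2 rose and 14 fell in CAL51 at 24 h, 1 rose and 29 fell at 48 h, and 0 rose and 23 fell in treated CALDOX. These are 50%, 93.8% and 71.9%, against 10.1%, 21.6% and 10.3% of all genes. The medians were -0.22, -0.66 and -0.39, where the median of all genes was -0.03, -0.02 and -0.01. UHRF1, which recognises newly replicated DNA, changed by -0.40 in CAL51 at 24 h, -0.97 at 48 h and -0.62 in CALDOX at 24 h. POLE2, a DNA polymerase subunit, changed by -0.90 in CAL51 at 48 h and -0.58 in CALDOX at 24 h. In untreated CALDOX 1 of the 32 was higher and 13 were lower than in untreated CAL51 (43.8%, against 25.9% of all genes), with CDC45 at -0.47 and CDC6 at -0.46. This list shares MCM2 with the chaperones and CCNE1 and CCNE2 with the histone mRNA factors. H2BC12, H2AC6 and H1-2 were higher in each of these comparisons, but they are the 3 histone genes called higher in all 5 group comparisons. Their rise thus does not speak for the 41 histone genes, of which 30 were called in none of the 5. The median histone gene changed by 0.02 in CAL51 at 24 h, 0.05 at 48 h and 0.02 in treated CALDOX. In CAL51 at 48 h, 8 of the 41 were higher and 3 lower. At most 2 of the 32 replication genes were higher in any of these comparisons. Whether the histone and replication changes are linked was not tested.

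**Figure D4:**
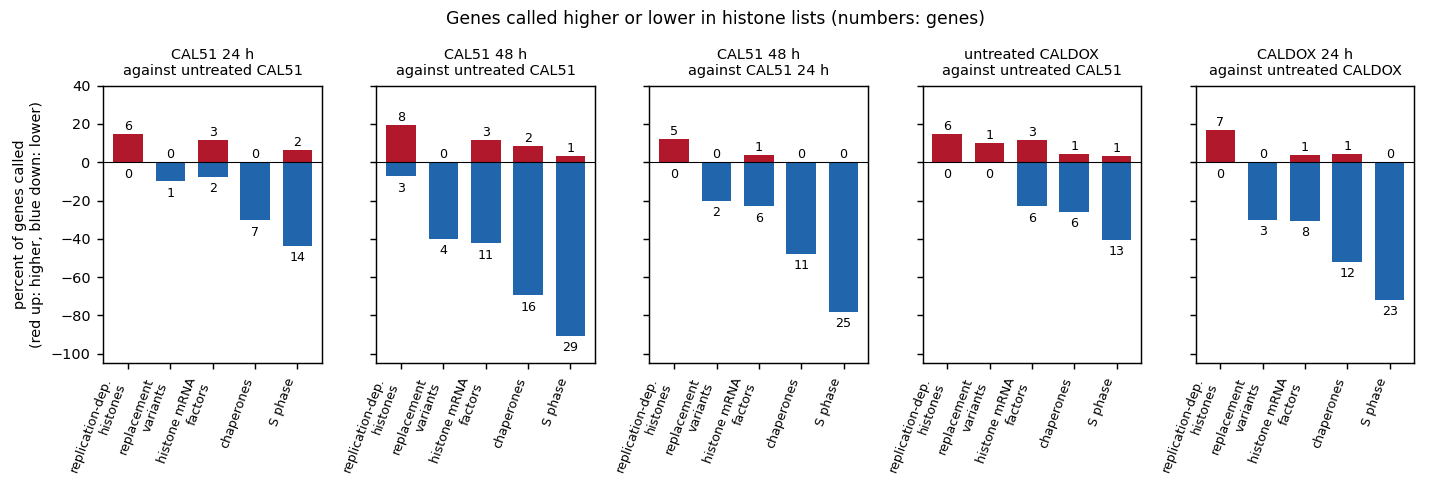
Percent of tested genes called higher (red, upward) or lower (blue, downward) in 5 comparisons for the replication-dependent histones and 4 related lists, with the number of genes at each bar. In CAL51 at 48 h, 29 of 32 S phase genes were lower, while of the 41 histone genes 8 were higher and 3 lower. Over all genes, 10.5% were higher and 11.2% lower in that comparison.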

How the data were processed

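Total RNA from 15 cultures was labelled as biotin cRNA and hybridized to Affymetrix arrays, per the labels' protocols. The deposited values are log2 intensities from RMA, run by the authors according to the submitters' processing notes. The RMA version is not given, and the log base was taken from the range of 3.083 to 14.76. RMA corrects background and quantile normalizes arrays, so a change shared by most genes would not be seen.

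Of 54675 probe sets, 62 controls were left out. A single gene symbol was annotated to 41091 of the rest, 1801 had more than 1 symbol and 11777 lacked a symbol. Probe sets with several symbols were not used to name a gene. For each of 19775 genes the probe set with the highest mean intensity was kept. The symbols of 41 of 41 histone genes matched RefSeq. Group means over the 15 arrays were modelled by lmFit and eBayes (limma 3.58.1, R 4.3.3, 10 residual and 5.397 prior degrees of freedom), giving 6 contrasts. P-values were two-sided and adjusted by Benjamini-Hochberg over all genes of a contrast, or over 54613 probe sets where stated, and called at 0.05. The fit was tested on simulated data. Precision is limited by the 3 arrays per group.

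The members and lists were chosen with earlier results of these data known. Every histone gene was counted. Those called were named, with H2BC12, H2AC6 and H1-2 in every contrast, up to 4 uncalled members by size, and up to 4 called genes of each other list; genes outside this are marked as such. Promoters were RefSeq windows of GRCh38.p14. Alternatives left out arrays or changed the normalization, filter, probe set or model.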

Additional observations from a re-analysis of the deposited data

Results flagged for a closer look

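H2BC12 was set apart because its 24 h response differed between the lines by a test of the difference itself. The CALDOX response minus the CAL51 response was -0.443 on the log2 scale (adjusted p = 0.0062). The response was 0.74 in CALDOX at 4 µM and 1.19 in CAL51 at 0.4 µM, so line, dose and drug-free passages cannot be told apart. The difference kept its direction and its call under 23 of 23 alternatives, with adjusted p up to 0.030.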

How the results depend on the processing

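For single histone genes, 540 of 601 alternative values kept direction and call, 61 kept direction without passing, and 0 reversed. Of 36 called results, 26 passed under every alternative run. Leaving out 1 array gave 6 to 7 called histone genes in CAL51 at 24 h, 8 to 10 at 48 h (11 with all arrays), 3 to 6 between 48 h and 24 h (3 without CAL51 24 h replicate 1), 4 to 6 between the untreated lines, 5 to 6 in treated CALDOX (7 with all arrays) and 1 to 1 for the difference of responses. Without probe sets marked as matching several transcripts, 32 histone genes were left and the counts were 3, 4, 3, 3 and 4 for the 5 group comparisons in that order, with 7.23%, 16.7%, 6.59%, 21.6% and 7.3% of all genes called. Fitting only the arrays compared gave 3 between 48 h and 24 h. Array weights gave 8 there, 10 between the untreated lines and 13 in treated CALDOX. The spread of each array as a covariate, chosen after seeing the data, gave 8 between 48 h and 24 h. For array weights and the spread covariate the cause was not tested. Replicate numbers were shared between groups, but same-numbered arrays correlated at -0.29 to 0.46 and 7 of 15 matched best with their own number, so the numbers were not taken to pair cultures. With the replicate block the counts were 6, 12, 6, 6, 7 and 1. Dim probe sets limit what can be seen: 5 of the 41 genes had means under 5.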

Other observations

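Another 20 probe sets carry several histone symbols each, so their signal cannot be given to 1 gene. In CAL51 at 24 h, 5 of the 20 were higher and 0 lower, where 8.09% of all probe sets were called. At 48 h, 7 were higher and 3 lower (14.5% of all probe sets), and in treated CALDOX 4 were higher and 1 lower (5.89%). Both directions thus occur among shared histone probe sets in each line.

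Among 6 probe sets shared by H4 genes, the one with the larger fall had 9.45, 9.66 and 9.48 in untreated CAL51, 9.63, 9.78 and 9.59 at 24 h, and 8.60, 8.60 and 8.89 at 48 h. It kept near its untreated level at 24 h, at 0.13 ± 0.08 (adjusted p = 0.43), and was lower by 0.97 at 48 h than at 24 h. In CALDOX it had 9.14, 9.09 and 9.08 after drug, against 9.62, 9.68 and 9.67 untreated, a difference of -0.55 ± 0.08 (adjusted p = 0.00063). Its 24 h response was lower in CALDOX than in CAL51 by -0.69 ± 0.12 (adjusted p = 0.0087), with line, dose and drug-free passages again not separable.

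Of 3 probe sets shared by the same 2 H2A genes, 2 moved the other way and the third did not pass. The brighter of the 2 had 9.42, 9.51 and 9.48 in untreated CAL51, 10.20, 10.15 and 10.23 at 24 h, and 10.85, 10.68 and 10.77 at 48 h, a 48 h difference of 1.30 ± 0.07 (adjusted p = 1.3e-09). In CALDOX it had 10.60, 10.70 and 10.68 after drug, against 10.02, 10.15 and 10.12 untreated. Its treated and untreated arrays did not overlap in either line. The other of the 2 gave 1.26 ± 0.06 in CAL51 at 48 h. The third gave -0.10 at 24 h and -0.03 at 48 h (adjusted p = 0.91) in CAL51 and -0.12 in treated CALDOX.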
